A study of Homo sapiens with 16 samples.

Results

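The nuclear pore is a channel through the nuclear envelope built from nucleoporins. An outer and an inner ring form its scaffold, nucleoporins rich in phenylalanine-glycine repeats such as NUP62 and NUP54 fill the channel, and NUP153 and NUP50 form part of a basket on the nuclear side. Transport receptors carry cargo through it: importin alpha adaptors recognise nuclear localisation signals and travel with KPNB1, other importins of the beta type bind cargo directly, and exportins such as XPO1 carry proteins and RNA out, with the small GTPase Ran setting the direction. The genes described here were chosen by symbol (NUP, KPNA, KPNB1, IPO, XPO and TNPO followed by a number or letter as in the family names), without pseudogenes, and by a mean over all 16 libraries of at least 1 FPKM (fragments relative to transcript length and to the library's mapped total). This gave 44 genes out of 50 matching symbols and 25270 genes in the matrix, namely 20 nucleoporins, 23 receptors (6 importin alphas, 11 importins of the beta type and 6 exportins) and NUP50-AS1, a long noncoding RNA gene next to NUP50 that RefSeq lists as NUP50-DT and that encodes no nucleoporin. All 44 passed the filter used for the tests, since that filter was the same mean FPKM. Just inside the limit were NUP50-AS1 with a mean of 1.03 and KPNA5 with 1.89, and just outside it was IPO9-AS1 with 0.544. KPNA7, an importin alpha of early embryos, and NUP210L, a relative of NUP210, had means of 0.0514 and 0.00464.

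The libraries came from U2OS, an established human osteosarcoma cell line, after 6 h of exposure in culture. T4 and T5, described by the series as modulators of alternative polyadenylation (the choice among sites at which an mRNA is cut and given its tail), and CPT, an abbreviation that the labels do not spell out, were each given at 0.5, 2, 5, 10 and 20 µM, with 1 library for each compound and dose, beside 1 DMSO library as the solvent control. No condition has a replicate. Tests therefore rest on a trend over the 5 doses and DMSO, scaled to the fitted change between 0 and 20 µM, or on the mean difference between compounds over the 5 shared doses, fitted with limma on log2(FPKM + 1) for 10600 genes and called at an adjusted p under 0.05 (Benjamini-Hochberg). All changes are on that scale, on which changes of weakly expressed genes come out too small, and ± gives the standard error of the fit over 6 libraries for a trend and 10 for a difference. FPKM summed to between 238668 and 285142 per library, total depth is unknown, and relative depths estimated from the spacing of small values were 0.639 to 0.997 times the DMSO depth. Among bone markers SPARC and COL1A1 stood at 226.9 and 300.6 FPKM in DMSO and RUNX2 at 2.86, while COL1A2, BGLAP and SP7 were at or near 0. The summed FPKM of 5 epithelial markers was 9.52 to 20.6 in treated libraries and 5.49 in DMSO, its part in any result was not tested, and that of 4 blood markers was at most 0.0943. In bulk RNA, fewer cells of a kind and less RNA per cell cannot be told apart.

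In DMSO the receptors summed to 924.9 FPKM and the nucleoporins to 454.7 FPKM. KPNA2, an importin alpha adaptor, led at 190.4 FPKM, followed by KPNB1 at 144.3, XPO1 at 80.5 and IPO7 at 78.4, whereas the highest nucleoporin, the inner ring scaffold NUP93, stood at 46.3 and the lowest, NUP62CL, at 2.19. Summed over all 44 genes at 20 µM, FPKM was 1023 with T4, 943.7 with T5 and 838.7 with CPT, against 1380 in DMSO.

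Transcripts of the pore and its receptors fell with rising dose more often than they rose, with each of the 3 compounds, whose trends share the DMSO library. With T4, 18 of the 44 fell and 2 rose, where 32.4% of all genes tested fell and 14.5% rose. With T5, 20 fell and 3 rose, where 34.5% of all genes fell and 18.2% rose. With CPT, 19 fell and 4 rose, where 25.8% of all genes fell and 17.9% rose. The median fitted change of the 44 was -0.52 with T4, -0.76 with T5 and -0.84 with CPT, beside -0.27, -0.29 and -0.14 over all genes. The direction of these medians depends on scaling. When each library was centred on its median, all genes shifted to medians of 0.38, 0.38 and 0.31. The 44 shifted to 0.13 with T4, -0.09 with T5 and -0.39 with CPT. Within a compound, centring shifts the trend of every gene by the same amount. It therefore cannot change the distance between the 44 and all genes. Centring also moved the split of calls to 6 falling and 13 rising with T4, 10 and 13 with T5, and 10 and 7 with CPT. The CPT count rests on single libraries, since without the 10 µM library none of the 44 and 1 of all genes tested was called by limma, which applies to every CPT trend called here, and without the 0.5 µM library 5 fell and 1 rose. Without the 10 µM T4 library 10 fell with T4 and none rose, and without the 0.5 µM T4 library 11 fell and none rose.

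At the highest dose the losses were largest with CPT. At 20 µM, 8 of the 44 with T4, 13 with T5 and 19 with CPT had lost at least 2-fold relative to DMSO on the log2(FPKM + 1) scale, where 22.9%, 26.5% and 21.0% of all genes tested were. The course over doses also differed. The median log2 ratio of the 44 to DMSO was 0.00, -0.37, -0.53, -0.47 and -0.41 from 0.5 to 20 µM T4, it was -0.09, -0.48, -0.77, -0.77 and -0.65 with T5, and it was -0.58, -1.02, -0.96, -0.88 and -0.91 with CPT. With CPT the median was thus lowest at 2 µM, and with T4 at 5 µM. All genes tested had medians of -0.02, -0.16, -0.27, -0.26 and -0.24 over the same T4 doses. Their T5 medians were -0.10, -0.25, -0.34, -0.34 and -0.29, and their CPT medians 0.02, -0.02, -0.12, -0.14 and -0.15. The low point at 5 µM T4 was thus shared by all genes, whereas the CPT low point at 2 µM was not. At 0.5 µM, 21 of 44 genes were below DMSO with T4, 31 with T5 and 35 with CPT. At that dose the median of the 44 lay below that of all genes with CPT alone.

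**Figure D1:**
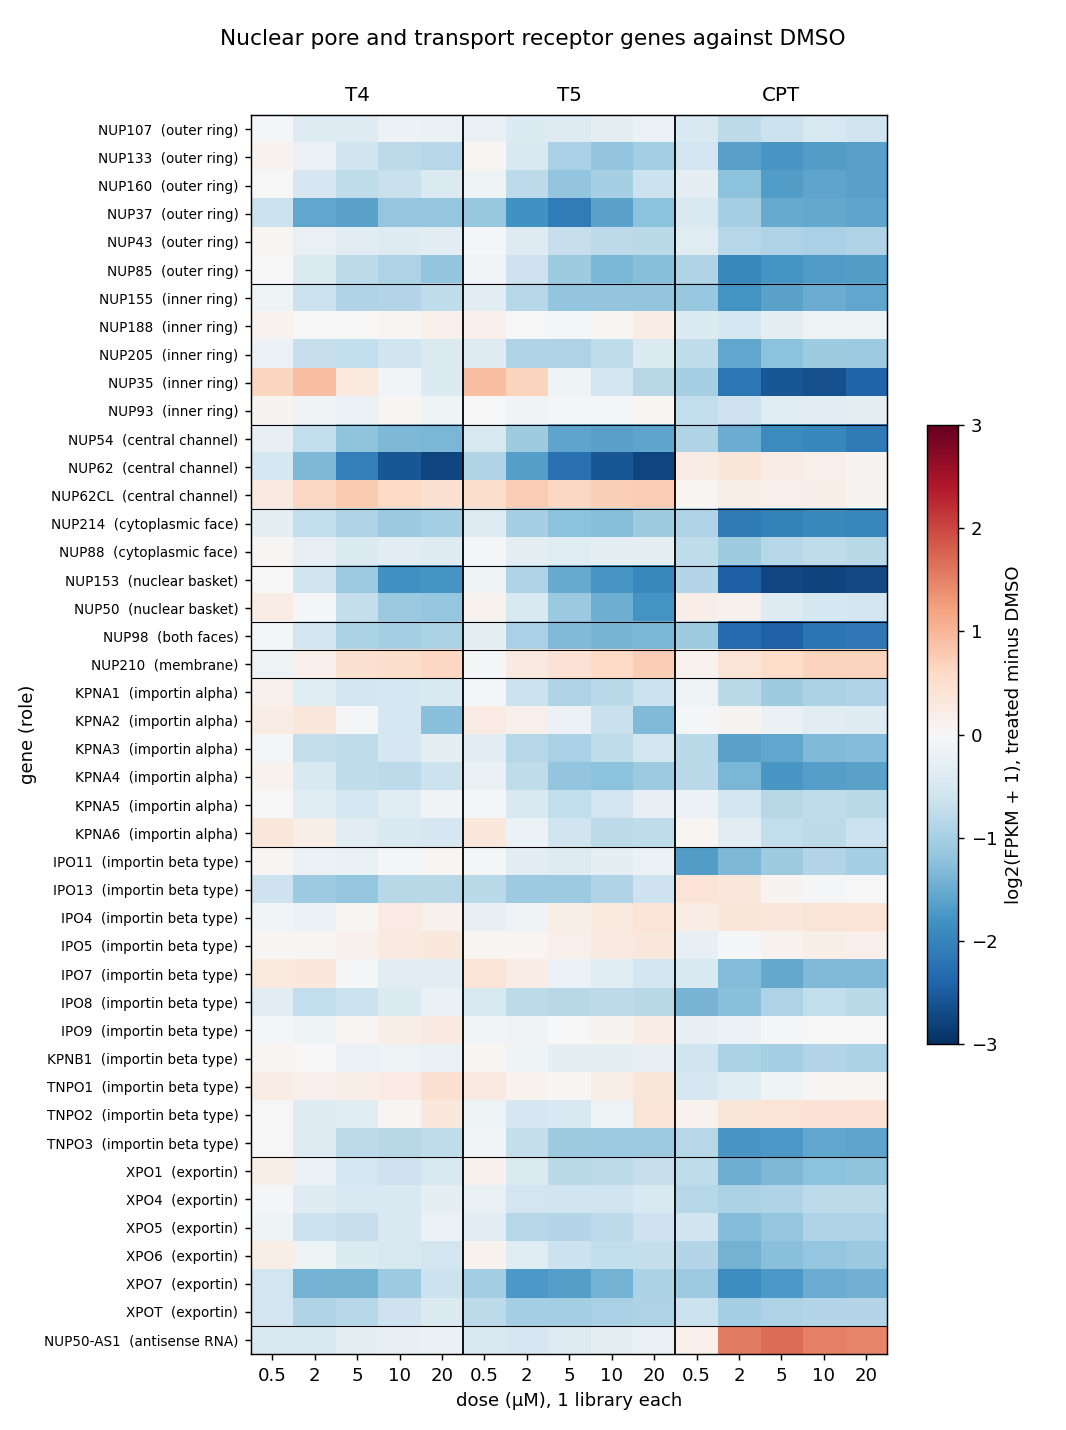
Each cell is log2(FPKM + 1) of a treated library minus that of the DMSO library, for the 44 genes in rows grouped by role and for T4, T5 and CPT at 0.5 to 20 µM in columns, 1 library each. NUP62 is dark blue with T4 and T5 only, NUP35 is dark blue with CPT only, and NUP50-AS1 is red with CPT; values are as deposited, and centring each library on its median raises the treated columns.

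NUP62, a central channel nucleoporin that itself carries phenylalanine-glycine repeats, had the most negative dose trend of the 44 with T4 and with T5. It stood at 24.4 FPKM in DMSO and at 16.8, 8.98, 5.09, 3.29 and 2.75 FPKM with 0.5, 2, 5, 10 and 20 µM T4. With T5 the same doses gave 12.6, 7.12, 4.36, 3.29 and 2.75 FPKM. With CPT they gave 28.9, 31.7, 28.9, 27.2 and 25.9 FPKM. Every T4 and T5 library lay below DMSO and each step in dose lowered NUP62 further, while every CPT library lay above DMSO. The fitted trend was -2.92 ± 0.20 with T4 (adjusted p = 0.00121), -2.75 ± 0.27 with T5 (adjusted p = 0.00117) and 0.01 ± 0.17 with CPT (adjusted p = 0.961). At matched doses NUP62 was lower with T4 than with CPT by -2.06 ± 0.30 (adjusted p = 0.00148) and lower with T5 than with CPT by -2.24 ± 0.25 (adjusted p = 0.000545), at all 5 doses in both comparisons. Of the 10600 genes, 69 had a more negative T4 trend and 155 a more negative T5 trend. The T4 and T5 trends and both differences from CPT were called in every fit that left out a dose.

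The annotation around NUP62 limits what its FPKM stands for. In GENCODE 29 it has 4 exons over 22.9 kb and shares exonic bases with ATF5, a stress-responsive transcription factor gene on the opposite strand, and with IL4I1 on the same strand. The labels do not say whether libraries kept the strand, so reads of NUP62 and ATF5 may not be told apart. ATF5 stood at 14.0 FPKM in DMSO and at 19.0, 19.4, 14.4, 11.4 and 8.22 FPKM with rising T4. The T5 series gave 21.0, 20.8, 16.9, 12.2 and 8.11 FPKM, and the CPT series 29.95, 34.96, 31.15, 26.3 and 23.4 FPKM. At 0.5, 2 and 5 µM T4 and T5, ATF5 was thus above DMSO where NUP62 was below it. At 10 and 20 µM T4 and T5 both genes were below DMSO. With CPT both were above DMSO at every dose and highest at 2 µM. The part of ATF5 reads in the NUP62 values was not tested. IL4I1 stayed between 0.0619 and 0.552 FPKM in the 16 libraries. By the same annotation, 22 of 43 members share exonic bases with another gene, 18 of them with a gene on the opposite strand. In 6 of these the opposite gene has a mean FPKM of at least 1, namely NUP62, NUP98 (PGAP2, 1.76 to 4.40 FPKM), NUP88 (RABEP1 and RPAIN), NUP43 (PCMT1, 30.7 to 47.6 FPKM), NUP188 (SH3GLB2) and XPO5 (POLR1C, 16.9 to 61.6 FPKM), and IPO11 overlaps KIF2A (3.05 to 25.4 FPKM) on the same strand, so the levels of these 7 genes are less certain than the others.

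NUP54, which binds NUP62 in the channel complex, fell with all 3 compounds. It stood at 26.3 FPKM in DMSO and at 21.9, 15.2, 10.9, 9.81 and 9.62 FPKM with rising T4, at 18.5, 12.1, 8.15, 7.75 and 8.09 FPKM with rising T5, and at 13.5, 8.77, 6.29, 6.00 and 5.25 FPKM with rising CPT. Every treated library was below DMSO, and CPT libraries were lowest at each dose. The trend was -1.50 ± 0.18 with T4 (adjusted p = 0.0017), -1.70 ± 0.25 with T5 (adjusted p = 0.00287) and -2.02 ± 0.31 with CPT (adjusted p = 0.0105, and adjusted p = 0.0537 without the 10 µM CPT library). NUP62CL, a relative of NUP62 that shares its C-terminal part, did not follow it. It stood between 2.85 and 4.46 FPKM with T4, between 3.60 and 4.43 with T5 and between 2.35 and 2.66 with CPT, against 2.19 in DMSO. None of its trends was called, and at matched doses it was higher with T4 than with CPT by 0.41 ± 0.09 (adjusted p = 0.0057) and with T5 by 0.54 ± 0.07 (adjusted p = 0.000994).

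NUP153, a basket nucleoporin with roles in import and in mRNA export, lost most of its transcript with each compound. It stood at 14.8 FPKM in DMSO and at 14.8, 9.42, 6.39, 3.52 and 3.63 FPKM with rising T4. The T5 libraries held 13.1, 7.24, 4.53, 3.70 and 3.10 FPKM. The CPT series gave 7.55, 1.88, 1.37, 1.31 and 1.40 FPKM. The CPT libraries from 2 µM upward were all below every T4 and T5 library, while 0.5 µM T4 did not differ from DMSO in the digits given. Trends were -2.08 ± 0.25 with T4 (adjusted p = 0.0018), -2.14 ± 0.21 with T5 (adjusted p = 0.00117) and -2.81 ± 0.56 with CPT (adjusted p = 0.0139, and adjusted p = 0.0556 without the 10 µM CPT library). NUP50, its basket partner and a cofactor of importin alpha, was chosen for description after its values were seen, because its order of compounds is the reverse. It stood at 13.0 FPKM with 20 µM T4, at 7.97 with 20 µM T5 and at 20.4 with 20 µM CPT, against 30.3 in DMSO. At matched doses NUP50 was lower with T4 than with CPT by -0.34 ± 0.11 (adjusted p = 0.0277, adjusted p between 0.0699 and 0.0899 without the 5, 10 or 20 µM libraries) and lower with T5 than with CPT by -0.72 ± 0.15 (adjusted p = 0.00694), and its T5 trend was -2.02 ± 0.20 (adjusted p = 0.00118).

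NUP35, an inner ring nucleoporin that touches the pore membrane, moved in opposite directions at low doses. It stood at 15.7 FPKM in DMSO and at 25.0, 30.4, 19.6, 14.8 and 11.6 FPKM with rising T4. The T5 series gave 30.0, 25.3, 14.3, 10.4 and 8.36 FPKM. The CPT series gave 7.38, 2.69, 1.81, 1.68 and 2.18 FPKM. T4 and T5 libraries were thus above DMSO at 0.5 and 2 µM and below it at 10 and 20 µM, and every CPT library was below every T4 and T5 library. NUP35 was higher with T4 than with CPT by 2.43 ± 0.22 (adjusted p = 0.000457) and with T5 than with CPT by 2.16 ± 0.18 (adjusted p = 0.000255). Among the 10600 genes, 8 had a larger difference of T4 over CPT and 14 of T5 over CPT. The trend was -2.49 ± 0.53 with CPT (adjusted p = 0.0157, and adjusted p = 0.0593 without the 10 µM CPT library), and it was not called with T4 (-0.64 ± 0.44, adjusted p = 0.271) or T5 (-1.29 ± 0.48, adjusted p = 0.0634), whose peak a straight line leaves undescribed.

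NUP98, a mobile nucleoporin found on both faces of the pore, was lowest with CPT at every dose. It stood at 20.8 FPKM in DMSO and at 20.2, 13.6, 10.3, 9.75 and 10.4 FPKM with rising T4, at 17.2, 10.2, 7.68, 7.27 and 7.41 FPKM with rising T5, and at 9.34, 3.42, 3.05, 3.77 and 3.96 FPKM with rising CPT. The T4 library was the highest at each dose and the T5 library came next. NUP98 was higher with T4 than with CPT by 1.32 ± 0.12 (adjusted p = 0.000436), higher with T5 than with CPT by 0.96 ± 0.11 (adjusted p = 0.000554), and lower with T5 than with T4 by -0.36 ± 0.04 (adjusted p = 0.00422). NUP85, an outer ring scaffold protein, stood at 39.9 FPKM in DMSO and at 39.4, 29.8, 22.6, 20.6 and 17.1 FPKM with rising T4. The T5 series gave 37.5, 25.5, 18.6, 14.7 and 15.9 FPKM, and the CPT series 21.0, 9.77, 11.1, 11.6 and 11.7 FPKM. CPT reached its lowest NUP85 level at 2 µM, and the T4 series was still falling at 20 µM. The NUP85 trend was -1.26 ± 0.13 with T4 (adjusted p = 0.00125) and -1.52 ± 0.18 with T5 (adjusted p = 0.00166). With CPT it was -1.55 ± 0.49 (adjusted p = 0.0439), and the adjusted p was between 0.0809 and 0.0962 without the 0.5, 5 or 10 µM CPT library.

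NUP210, the membrane-spanning nucleoporin of the set, was the 1 nucleoporin of 20 called as rising with each compound. It stood at 4.33 FPKM in DMSO and at 3.81, 4.89, 6.32, 6.67 and 7.16 FPKM with rising T4, at 4.08, 5.37, 6.16, 7.12 and 7.95 FPKM with rising T5, and at 4.75, 6.13, 6.86, 7.43 and 7.50 FPKM with rising CPT. From 2 µM upward all libraries were above DMSO, and each step from 0.5 µM upward raised the level. The trend was 0.77 ± 0.20 with T4 (adjusted p = 0.0208, and adjusted p between 0.052 and 0.0767 without the 0.5, 5, 10 or 20 µM T4 library), 0.84 ± 0.17 with T5 (adjusted p = 0.00839) and 0.74 ± 0.17 with CPT (adjusted p = 0.0185, and adjusted p between 0.0546 and 0.088 without the 5 or 10 µM CPT library). The differences between compounds at matched doses were not called for NUP210.

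**Figure D2:**
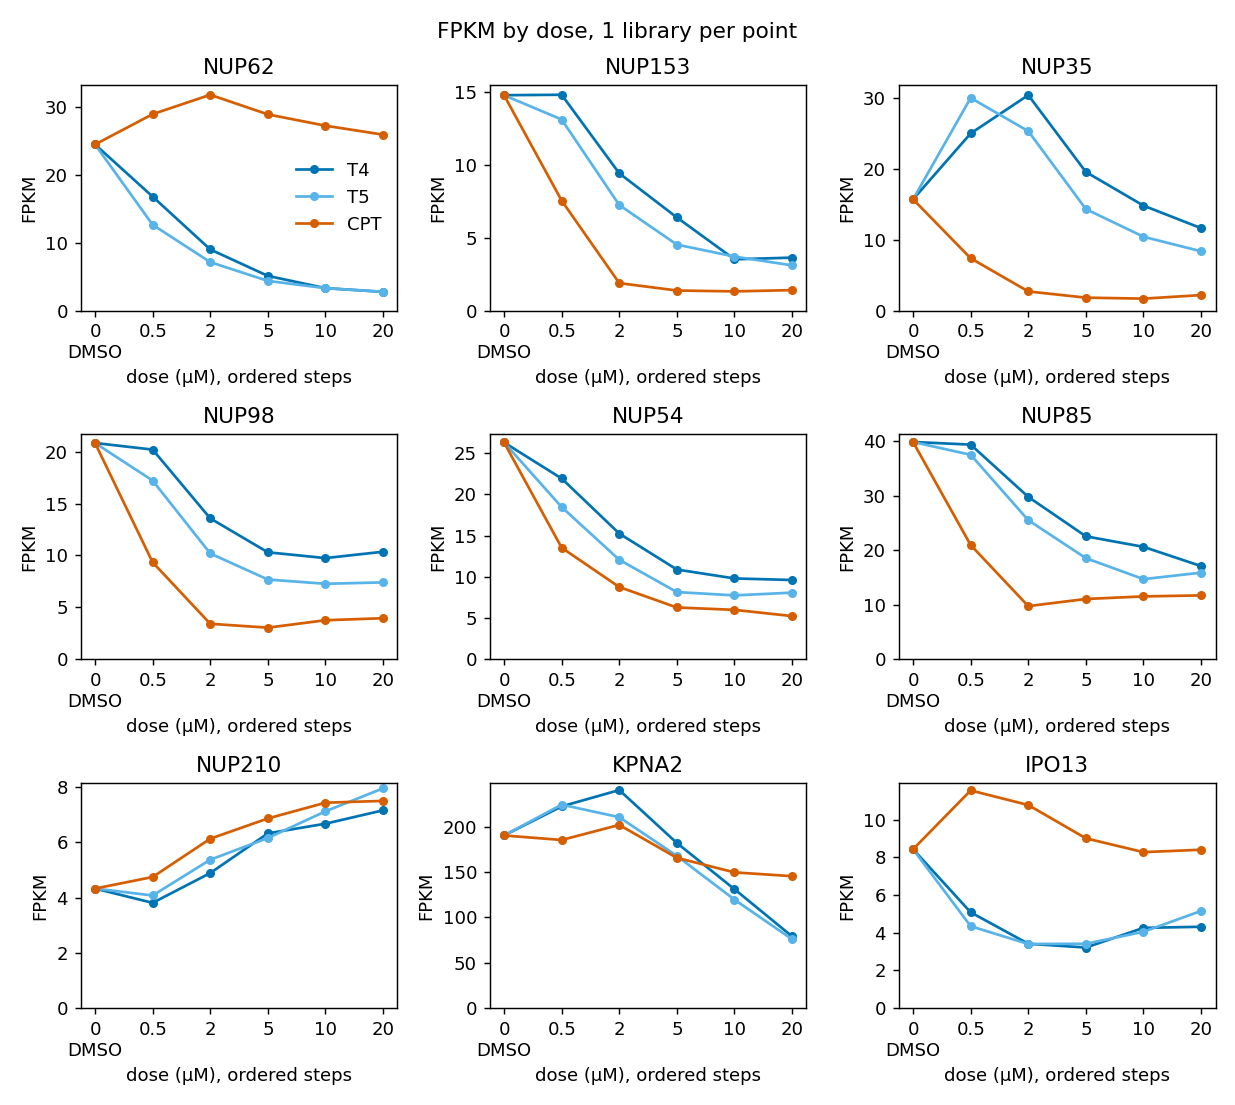
FPKM of 9 genes (vertical axes, each from 0) against dose in ordered steps, DMSO at 0, with 1 library per point and lines for T4, T5 and CPT. NUP62 falls to 2.75 FPKM with 20 µM T4 and T5 while CPT libraries stay above DMSO, NUP153 and NUP98 are lowest with CPT, NUP35 peaks at low T4 and T5 doses, and NUP210 climbs with each compound.

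Promoters of 4 of these nucleoporins are given because their transcripts followed different courses: NUP62 was lost with T4 and T5 only, NUP35 peaked at low T4 and T5 doses, NUP153 was lost with all 3 compounds, and NUP210 rose. Each runs 5′ to 3′ from 250 bases before to 50 bases after the gene start in RefSeq (GRCh38.p14). Capitals mark matches, on either strand, to the searched motifs, except a match that overlaps one already marked. The motifs were the core GCATGCGC of NRF1, the ETS core CCGGAAG, the CCAAT box, the GC box GGGCGG, the TATA box TATAAA, and AAGATGGCG of YY1. Positions are chr19:49929455-49929754 on the minus strand for NUP62, chr2:183124193-183124492 on the plus strand for NUP35, chr6:17706876-17707175 on the minus strand for NUP153, and chr3:13420273-13420572 on the minus strand for NUP210.
NUP62: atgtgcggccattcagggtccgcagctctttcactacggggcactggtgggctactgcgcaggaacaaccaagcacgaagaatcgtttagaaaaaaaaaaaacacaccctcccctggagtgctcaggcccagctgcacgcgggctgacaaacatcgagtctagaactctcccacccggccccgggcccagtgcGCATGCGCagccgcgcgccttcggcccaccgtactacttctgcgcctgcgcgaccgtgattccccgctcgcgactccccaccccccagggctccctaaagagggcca
NUP35: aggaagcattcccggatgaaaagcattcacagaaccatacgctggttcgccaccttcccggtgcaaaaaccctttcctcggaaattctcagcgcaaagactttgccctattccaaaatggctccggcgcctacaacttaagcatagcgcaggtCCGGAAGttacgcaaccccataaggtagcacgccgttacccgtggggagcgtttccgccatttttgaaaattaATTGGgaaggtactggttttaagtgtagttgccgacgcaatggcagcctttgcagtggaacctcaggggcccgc
NUP153: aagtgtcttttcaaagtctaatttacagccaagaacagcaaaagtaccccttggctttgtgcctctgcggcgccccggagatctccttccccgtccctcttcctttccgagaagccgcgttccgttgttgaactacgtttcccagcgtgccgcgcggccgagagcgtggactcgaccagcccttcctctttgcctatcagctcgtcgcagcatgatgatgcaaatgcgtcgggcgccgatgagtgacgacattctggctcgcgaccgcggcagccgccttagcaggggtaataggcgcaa
NUP210: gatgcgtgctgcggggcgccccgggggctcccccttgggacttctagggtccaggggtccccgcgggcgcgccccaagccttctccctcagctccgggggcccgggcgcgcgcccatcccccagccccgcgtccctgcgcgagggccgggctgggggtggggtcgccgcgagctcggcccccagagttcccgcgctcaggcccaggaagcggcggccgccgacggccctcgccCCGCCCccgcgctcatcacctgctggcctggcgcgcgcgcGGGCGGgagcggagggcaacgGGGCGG
The NUP62 window holds the NRF1 core, overlapped by a match on the opposite strand, GCGCATGC, that starts in the small letters just before it. The NUP35 window holds the ETS core and a CCAAT box read on the opposite strand as ATTGG. The NUP210 window holds the GC box 3 times and is 81.3% G or C, and the NUP153 window holds none of these letters. RefSeq promoters were matched for 38 of the 44 genes. Among these, the NRF1 core was found in 4 (NUP62, NUP50, NUP107 and IPO11), where 3.05% of the 35116 promoters in the table hold it. The ETS core was found in 12, where 10.3% of all promoters hold it, the CCAAT box in 19 (34.6%), the GC box in 23 (45.0%), the TATA box in 3 (11.5%) and the YY1 motif in 4 (1.75%). The 35116 promoters were not limited to the genes tested here, so their shares are no like-for-like background, and enrichment was not tested. A match describes the letters in the window and shows no binding.

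By place in the pore, the scaffold rings gave the following picture. With CPT, 5 of 6 outer ring genes fell, all but NUP107, with trends between -1.79 for NUP160 and -0.43 for NUP107. Of all genes tested, 25.8% fell with CPT, 32.4% with T4 and 34.5% with T5. With T4 and with T5, NUP133, NUP85 and NUP43 were the 3 outer ring genes called, all falling. NUP43 was not called without the 0.5, 2, 5 or 10 µM T4 library (adjusted p between 0.0565 and 0.126), and its T4 trend turned positive when libraries were centred on their medians. Centring left 3 outer ring genes falling and none rising with CPT, 1 falling and 1 rising with T4, and 2 falling and 1 rising with T5. NUP37, an outer ring gene, was lowest at 5 µM T4 and T5, with 5.81 and 3.78 FPKM, and at 20 µM CPT, with 5.85 FPKM, against 19.6 in DMSO. In the inner ring NUP155 fell with T4 (-0.90 ± 0.21, adjusted p = 0.0147, and adjusted p between 0.0536 and 0.0572 without the 0.5 or 10 µM T4 library) and T5 (-1.27 ± 0.20, adjusted p = 0.00364). Its trend with CPT was not called (-1.25 ± 0.49, adjusted p = 0.0791), though every CPT library was below DMSO. At 20 µM NUP155 stood at 17.3 FPKM with T4, 12.5 with T5 and 9.45 with CPT, against 29.8 in DMSO. Trends of NUP93, NUP188 and NUP205 were not called with any compound. After centring, 2 inner ring genes rose and none fell with T4, 2 rose and 1 fell with T5, and 1 fell with CPT. All 5 inner ring genes were higher with T4 than with CPT, by 0.37 for NUP188 up to 2.43 for NUP35, and all 5 were higher with T5. The outer ring had 5 of 6 higher in each comparison, and its median difference of T4 over CPT was 0.69, beside 0.61 for the inner ring. Of all genes tested, 28.3% were higher with T4 than with CPT and 25.0% with T5, and centring left the ring counts unchanged. On the cytoplasmic face NUP214, a docking site of mRNA export, stood at 3.83 FPKM with 20 µM T4, 3.67 with 20 µM T5 and 1.52 with 20 µM CPT, against 8.85 in DMSO. NUP214 fell with each compound, by -1.12 ± 0.22 with T4 (adjusted p = 0.00739), -1.19 ± 0.30 with T5 (adjusted p = 0.0172, and adjusted p between 0.0546 and 0.0623 without the 0.5 or 10 µM T5 library) and -1.85 ± 0.53 with CPT (adjusted p = 0.0333, and adjusted p between 0.0645 and 0.0823 without the 0.5, 5 or 10 µM CPT library). Its partner NUP88 had a called trend with T4 alone (-0.46 ± 0.14, adjusted p = 0.0327, and adjusted p between 0.059 and 0.108 without the 0.5, 5, 10 or 20 µM T4 library), which turned to 0.19 when libraries were centred on their medians, with 18.1 FPKM at 20 µM T4, 19.7 at 20 µM T5 and 13.1 at 20 µM CPT, against 24.1 in DMSO.

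Receptors had smaller median trends than nucleoporins. With T4, 7 of 23 receptors fell and 1 rose, beside 11 falling and 1 rising of 20 nucleoporins. With T5, 10 fell and 2 rose, beside 10 falling and 1 rising nucleoporins. With CPT, 8 fell and 2 rose, beside 11 falling and 1 rising nucleoporins. All of these stand beside the shares of all genes given above, 32.4% falling with T4, 34.5% with T5 and 25.8% with CPT, and the receptor count with T4 lies near its share. Falling receptors numbered 2 without 10 µM T4 and 3 without 0.5 µM T4, 5 without 0.5 µM T5 and 6 without 10 µM T5, 5 without 5 µM CPT, and none without 0.5 or 10 µM CPT. Falling nucleoporins numbered 5 without 0.5 µM CPT, 7 without 5 µM CPT and none without 10 µM CPT. The difference between the classes was not tested. When libraries were centred on their medians, 7 of 11 importins of the beta type rose with T4, 6 with T5 and 5 with CPT. Of these importins none then fell with T4, 1 fell with T5 and 1 with CPT. No importin alpha then rose, none fell with T4, 1 fell with T5 and 1 with CPT. No exportin was then called. Median trends were -0.38 for receptors and -0.77 for nucleoporins with T4, -0.66 and -1.18 with T5, and -0.80 and -1.09 with CPT.

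KPNB1, the carrier that takes importin alpha and its cargo into the nucleus, stayed nearer to its DMSO level with T4 and T5 than with CPT. It stood at 144.3 FPKM in DMSO and at 150.9, 142.3, 126.9, 130.6 and 126.0 FPKM with rising T4. The T5 libraries held 150.8, 132.5, 119.5, 119.0 and 121.1 FPKM, and the CPT series 95.1, 74.3, 72.0, 78.1 and 74.9 FPKM. All CPT libraries were below all others. KPNB1 was higher with T4 than with CPT by 0.78 ± 0.05 (adjusted p = 0.000385) and with T5 than with CPT by 0.70 ± 0.04 (adjusted p = 0.00014). Its trend with T4 was not called (-0.25 ± 0.09, adjusted p = 0.0589) and turned to 0.40 when libraries were centred on their medians, and its T5 trend of -0.35 ± 0.10 (adjusted p = 0.0258, and adjusted p between 0.0525 and 0.0949 without the 0.5, 2 or 10 µM T5 library) turned to 0.32.

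The importin alphas behaved less alike. KPNA2, the most abundant of them, stood at 190.4 FPKM in DMSO and at 222.5, 240.5, 182.1, 131.2 and 79.2 FPKM with rising T4. The T5 series gave 224.4, 210.6, 167.9, 119.7 and 76.0 FPKM, and the CPT series 185.5, 202.1, 165.8, 149.7 and 145.6 FPKM. T4 and T5 libraries were above DMSO at 0.5 and 2 µM and below it from 5 µM, and at 20 µM they were the lowest of all 16 libraries. The KPNA2 trend was -1.22 ± 0.38 with T4 (adjusted p = 0.0381, and adjusted p between 0.0918 and 0.183 without the 0.5, 10 or 20 µM T4 library, the trend being -0.62 without 20 µM), -1.32 ± 0.34 with T5 (adjusted p = 0.0176, and adjusted p between 0.061 and 0.072 without the 0.5 or 20 µM T5 library, the trend being -0.82 without 20 µM) and -0.43 ± 0.13 with CPT (adjusted p = 0.0402, and adjusted p between 0.084 and 0.133 without the 0.5, 5, 10 or 20 µM CPT library). The mean differences from CPT over matched doses were not called, and KPNA2 was higher with T4 than with CPT at 0.5, 2 and 5 µM and lower at 10 and 20 µM. KPNA4, KPNA1 and KPNA6 fell with all 3 compounds, between -0.64 ± 0.20 for KPNA1 with T4 and -1.57 ± 0.37 for KPNA4 with CPT. KPNA5 fell with CPT (-0.87 ± 0.19, adjusted p = 0.0165), and no KPNA3 trend was called. Single libraries decide several of these calls: without the 0.5 or 10 µM library the trends of KPNA4 and KPNA1 with T4 and of KPNA1 with T5 were not called (adjusted p between 0.0548 and 0.122), nor was that of KPNA1 without 5 µM T4 (adjusted p = 0.0655), nor that of KPNA6 without 0.5, 5, 10 or 20 µM T4 (adjusted p between 0.074 and 0.125). With CPT the trends of KPNA4, KPNA1, KPNA6 and KPNA5 were not called without the 0.5 or 10 µM library (adjusted p between 0.0502 and 0.0849). When libraries were centred on their medians, no importin alpha was called with T4, and 1 fell with T5 and 1 with CPT.

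Among importins of the beta type, IPO13, which carries cargo in both directions, was lower with T4 and T5 than with CPT at every dose and was chosen for description after its values were seen. It stood at 8.43 FPKM in DMSO and at 5.08, 3.42, 3.22, 4.26 and 4.32 FPKM with rising T4. The T5 series gave 4.35, 3.40, 3.42, 4.05 and 5.16 FPKM, and the CPT series 11.6, 10.8, 9.01, 8.28 and 8.41 FPKM. At the lowest dose of T4 or T5 IPO13 was already below DMSO, levels at 10 and 20 µM were above those at 2 and 5 µM, and no trend over dose was called. At matched doses it was lower with T4 than with CPT by -1.07 ± 0.11 (adjusted p = 0.000605) and lower with T5 than with CPT by -1.06 ± 0.13 (adjusted p = 0.0007), at all 5 doses.

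IPO7, a carrier of ribosomal proteins and histones, showed the opposite order. It stood at 78.4 FPKM in DMSO and at 96.3, 98.6, 74.9, 62.6 and 63.1 FPKM with rising T4, at 105.0, 92.0, 69.2, 61.1 and 52.1 FPKM with rising T5, and at 56.6, 31.1, 26.3, 30.5 and 30.7 FPKM with rising CPT. At each dose CPT was the lowest. IPO7 was higher with T4 than with CPT by 1.18 ± 0.13 (adjusted p = 0.000682) and with T5 than with CPT by 1.10 ± 0.12 (adjusted p = 0.000554).

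IPO5, another importer of ribosomal proteins, rose modestly with T4 and T5. It stood at 49.2 FPKM in DMSO and at 50.5, 50.4, 54.0, 59.9 and 61.5 FPKM with rising T4, at 51.4, 51.4, 55.0, 59.9 and 63.1 FPKM with rising T5, and at 41.5, 47.2, 53.2, 55.8 and 54.4 FPKM with rising CPT. All T4 and T5 libraries were above DMSO, and the CPT libraries lay on both sides of it. The trend was 0.33 ± 0.10 with T4 (adjusted p = 0.028, and adjusted p between 0.0556 and 0.101 without the 0.5, 5, 10 or 20 µM T4 library) and 0.35 ± 0.09 with T5 (adjusted p = 0.0162, and adjusted p between 0.0726 and 0.0745 without the 10 or 20 µM T5 library). It was not called with CPT (0.31 ± 0.14, adjusted p = 0.122). TNPO2, a carrier of RNA-binding proteins, stood at 12.6 FPKM in DMSO and at 12.8, 9.38, 9.56, 13.0 and 15.97 FPKM with rising T4, at 11.2, 8.60, 8.83, 11.1 and 16.8 FPKM with rising T5, and at 13.7, 16.5, 17.1, 17.3 and 17.3 FPKM with rising CPT. With T4 and T5 it thus dipped at 2 and 5 µM and was above DMSO at 20 µM, and with CPT every library was above DMSO. The TNPO2 trend with CPT was 0.45 ± 0.14 (adjusted p = 0.042, and adjusted p between 0.0647 and 0.138 without the 0.5, 5, 10 or 20 µM CPT library). TNPO3, which imports SR splicing factors, fell with all 3 compounds, by -0.97 ± 0.20 with T4 (adjusted p = 0.00841), -1.26 ± 0.22 with T5 (adjusted p = 0.00462) and -1.44 ± 0.47 with CPT (adjusted p = 0.0468, and adjusted p between 0.0849 and 0.098 without the 0.5, 5 or 10 µM CPT library). When libraries were centred on their medians, TNPO3 was not called with CPT (-0.99, adjusted p = 0.0806), and no importin of the beta type fell with T4. As deposited, IPO4 rose with T5 (0.56 ± 0.16) and CPT (0.36 ± 0.12), IPO8 fell with T5 (-0.74 ± 0.22), and no trend was called for IPO9, IPO11 or TNPO1. The T5 calls were lost without the 0.5, 10 or 20 µM T5 library for IPO4 (adjusted p between 0.0666 and 0.1) and without the 0.5, 5 or 10 µM T5 library for IPO8 (adjusted p between 0.0576 and 0.081), and the CPT call of IPO4 without the 0.5, 5, 10 or 20 µM CPT library (adjusted p between 0.08 and 0.132).

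No exportin was called as rising with any compound. XPO1, the main exporter of proteins with leucine-rich export signals, stood at 80.5 FPKM in DMSO and at 90.8, 71.7, 55.5, 52.3 and 57.8 FPKM with rising T4. The T5 libraries held 88.6, 59.0, 45.8, 46.5 and 49.1 FPKM, and the CPT series 47.2, 28.5, 30.9, 33.7 and 34.2 FPKM. At 0.5 µM, T4 and T5 were above DMSO and CPT was below it, and from 2 µM all libraries were below it. The XPO1 trend was -0.73 ± 0.18 with T4 (adjusted p = 0.0155, and adjusted p = 0.0536 without the 10 µM T4 library) and -0.96 ± 0.21 with T5 (adjusted p = 0.0103). With CPT it was not called (-1.07 ± 0.39, adjusted p = 0.0678), but it was called at -1.14 without the 2 µM CPT library (adjusted p = 0.0269). XPO6, the exporter of actin, fell with T4 (-0.71 ± 0.15) and T5 (-0.92 ± 0.16). When libraries were centred on their medians no exportin trend was called with any compound, with -0.07 for XPO6 and -0.08 for XPO1 with T4, and -0.24 and -0.28 with T5. With CPT no exportin trend was called by limma, while 2 of 6 fell at an unadjusted p under 0.05. Every exportin was nevertheless below DMSO at all 5 CPT doses. At 20 µM the 6 exportins stood at 34.35% to 53.4% of their DMSO level with CPT. The ranges were 62.2% to 87.9% with T4 and 49.4% to 66.9% with T5. XPO7, XPO5, XPO4 and XPOT, which carry broad protein cargo, precursor microRNAs, a translation factor and tRNA, had no called trend with any compound, and XPO7 dipped to 8.21 FPKM at 2 µM T4 and 6.47 at 2 µM T5, with 14.8 and 11.7 FPKM at 20 µM, against 23.8 in DMSO.

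**Figure D3:**
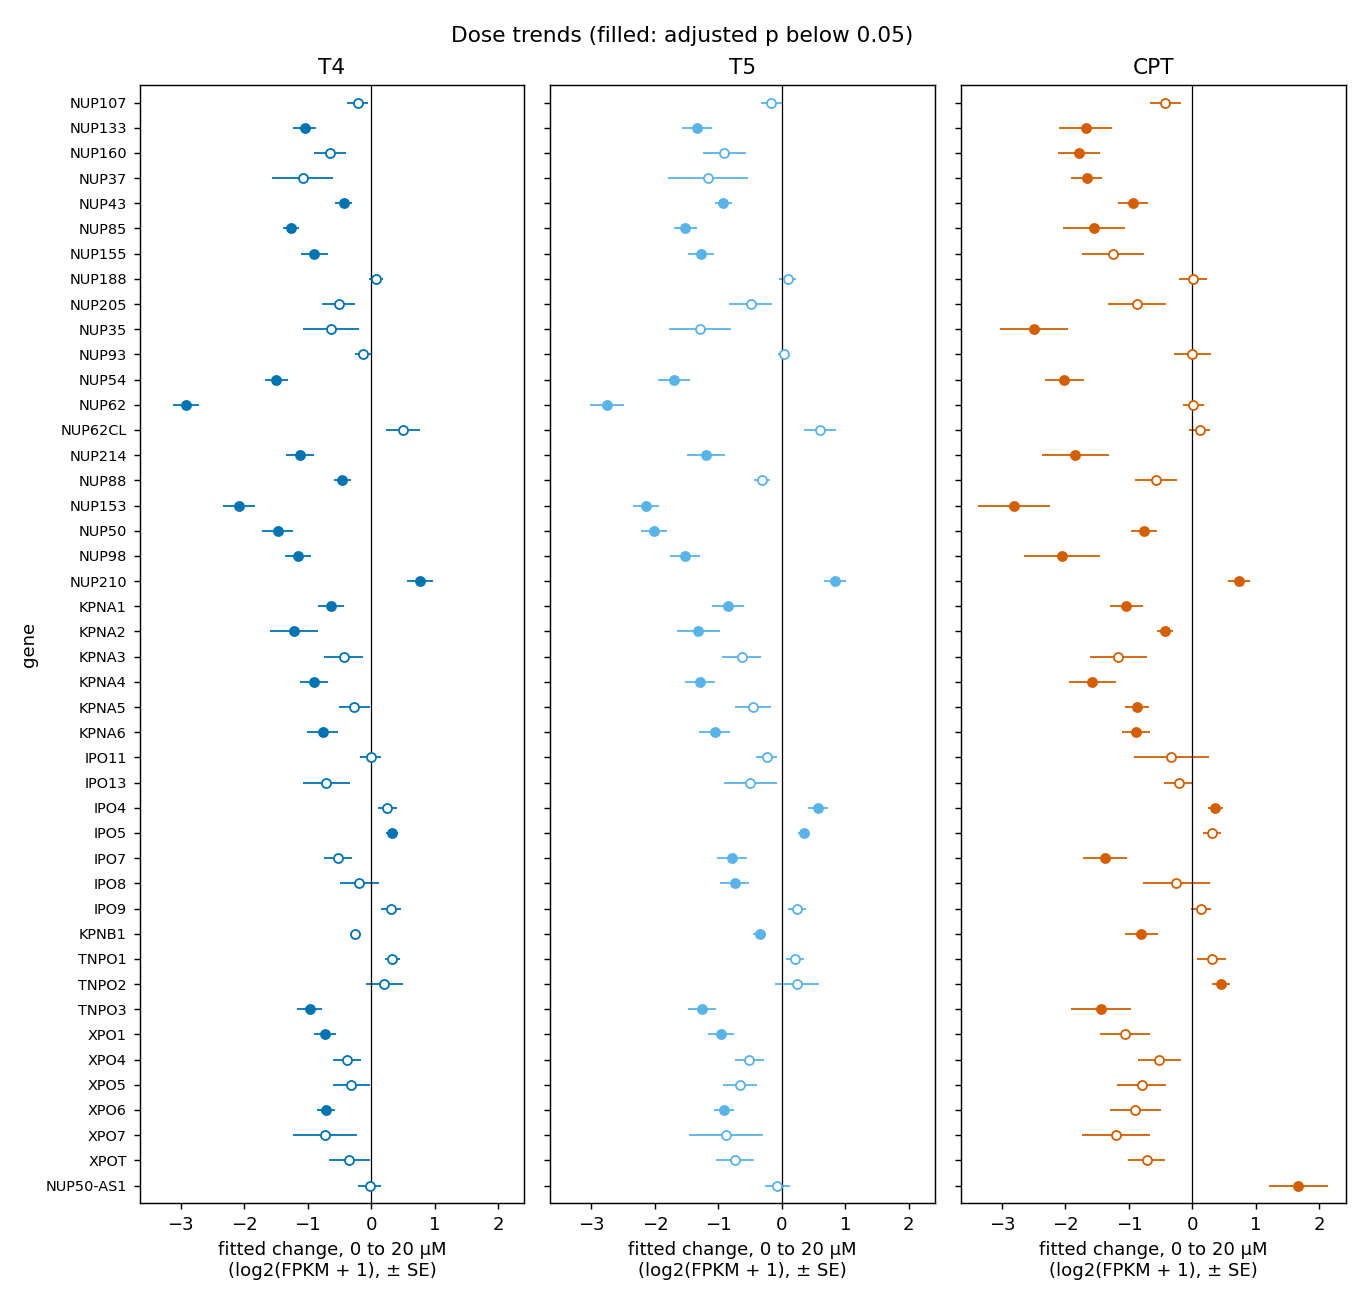
Fitted change in log2(FPKM + 1) from 0 to 20 µM with its standard error (horizontal axes) for the 44 genes in rows, with T4, T5 and CPT from left to right and filled points for an adjusted p under 0.05. Most points lie left of 0, NUP62 is farthest left with T4 and T5 at -2.92 and -2.75 and lies at 0.01 with CPT, and NUP210 lies right of 0 in each panel; centring libraries on their medians moves all points to the right.

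Compared at the same doses, most of the 44 were higher with T4 or T5 than with CPT. With T4 over CPT, 32 of 44 were higher and 6 lower, where 28.3% of all genes tested were higher and 36.9% lower. With T5 over CPT, 28 were higher and 6 lower, where 25.0% of all genes were higher and 37.6% lower. The median differences of the 44 were 0.54 and 0.38, beside -0.09 and -0.10 over all genes, and stayed positive at 0.63 and 0.57 when libraries were centred on their medians. Centring gave 35 higher and 5 lower with T4, where 32.1% of all genes were higher and 28.4% lower, and 34 higher and 4 lower with T5, where 37.6% of all genes were higher and 23.8% lower, so that all genes were more often lower as deposited and more often higher after centring. The 6 genes lower with T4 ranged from NUP62 at -2.06 and NUP50-AS1 at -1.60 over IPO13, TNPO2 and NUP50 to IPO4 at -0.31, with TNPO2 not called without 2, 5 or 10 µM (adjusted p between 0.0641 and 0.0847). With T5, against the same CPT libraries, these 6 had differences of -2.24 for NUP62, -1.64 for NUP50-AS1, -1.06 for IPO13, -0.72 for NUP50, -0.53 for TNPO2 and -0.23 for IPO4, the TNPO2 call being lost without 2 or 5 µM (adjusted p between 0.0535 and 0.0552) and that of IPO4 without 0.5, 2, 5 or 10 µM (adjusted p between 0.0629 and 0.142). By role, 5 of 6 exportins and 5 of 6 importin alphas were higher with T4 than with CPT, and 4 of 6 and 2 of 6 with T5.

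Gene length goes with these differences. The 43 members with a gene span in GENCODE 29 had a median span of 67.0 kb, against 31.3 kb over 10036 tested genes. Across genes, which are not independent replicates, the span and the difference of T4 over CPT had a Spearman rho of 0.47 over the 43 and of 0.59 over the 10036. For T5 over CPT, rho was 0.48 and 0.51. Of the members lower with T4 or T5 than with CPT, NUP62 spans 22.9 kb, IPO13 21.1 kb, TNPO2 24.8 kb, NUP50 24.2 kb and IPO4 8.75 kb, while NUP35, with the largest positive difference, spans 44.2 kb. The part of gene length in the result was not tested.

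T5 was below T4 for much of the set. Of the 44, 23 were lower with T5 than with T4 and none was called higher by limma, and none was higher at an unadjusted p under 0.05, where 26.5% of all genes tested were lower and 6.05% higher. The median difference was -0.19, beside -0.06 over all genes. Centring libraries on their medians left 12 lower and 6 higher, and moved the median of the 44 to -0.09 beside 0.04 over all genes. At single doses, 36, 38, 39, 37 and 33 of 44 genes were lower with T5 than with T4 from 0.5 to 20 µM. The differences were small, and those of XPO1, XPO4, XPOT, NUP85, NUP133, NUP205, NUP214 and KPNA6 were not called without at least 1 of the doses. The largest were -0.38 ± 0.04 for KPNA4 (adjusted p = 0.00422), -0.38 ± 0.07 for NUP50 (adjusted p = 0.009) and -0.36 ± 0.07 for NUP37 (adjusted p = 0.0119). By role, 6 of 6 exportins, 5 of 6 outer ring genes (3 without 2, 5 or 10 µM) and 2 of 11 importins of the beta type were lower with T5. Centring left 2 exportins, 2 outer ring genes and 1 importin of the beta type lower, with 2 importins of the beta type higher, and the difference between roles was not tested.

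**Figure D4:**
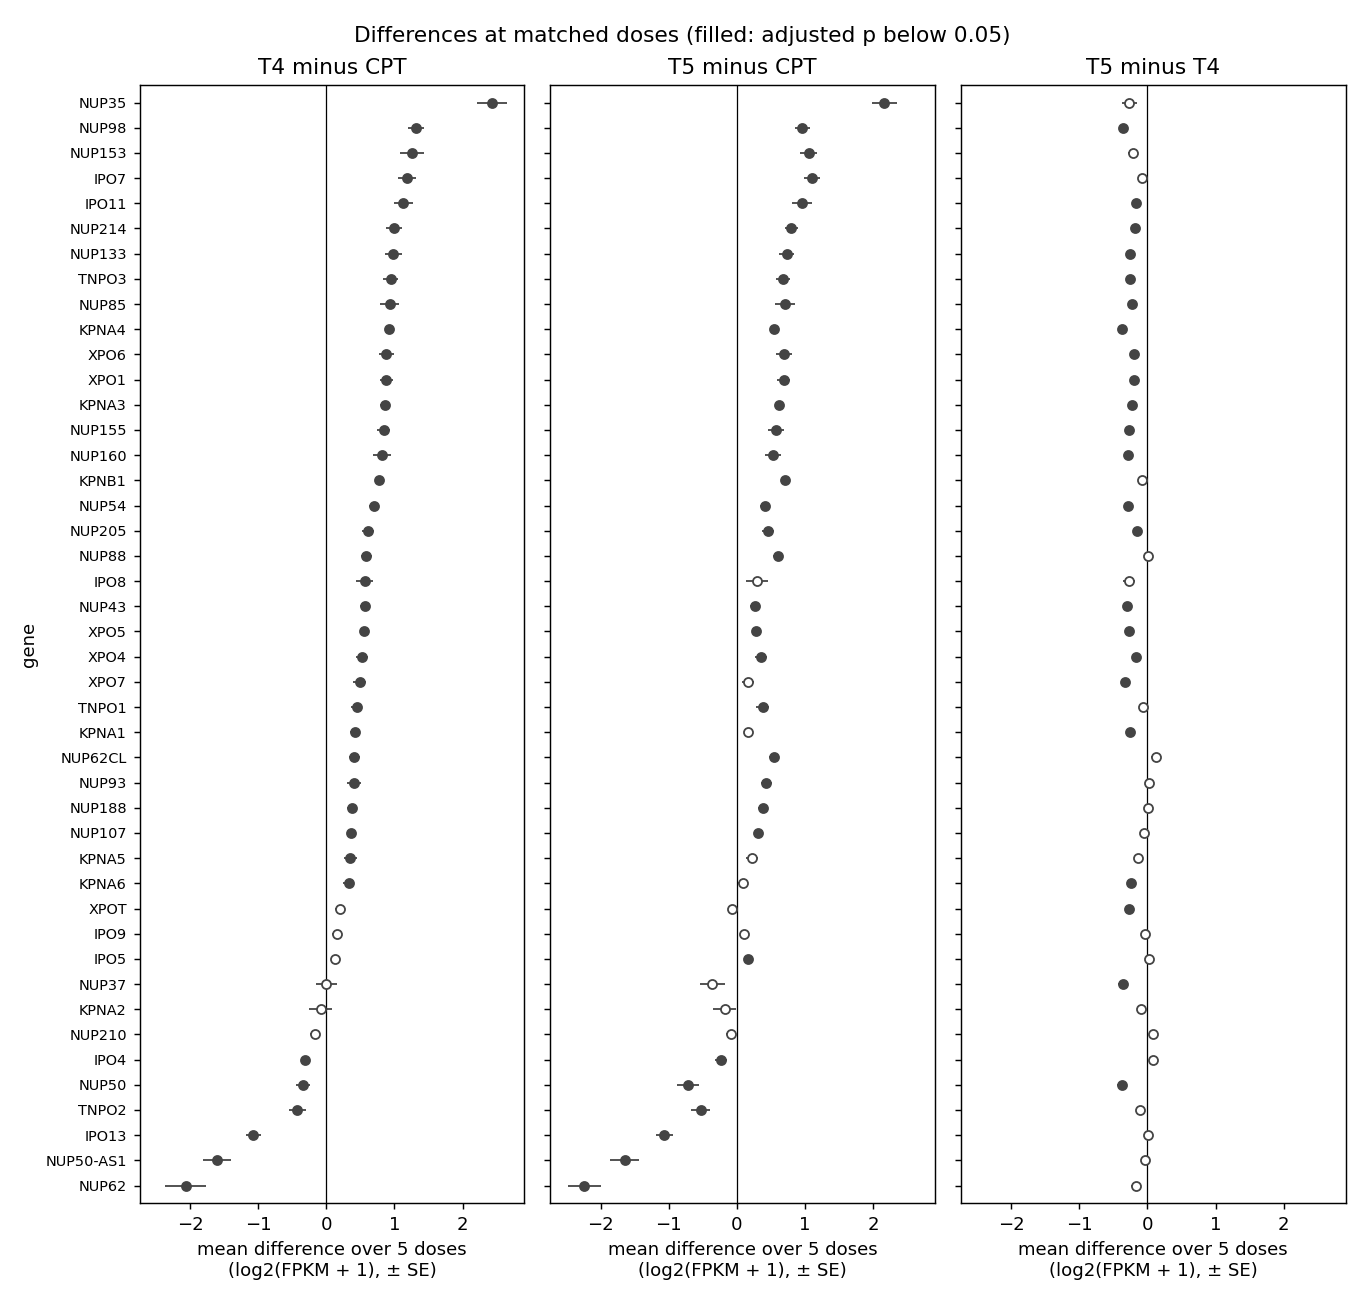
Mean difference in log2(FPKM + 1) over the 5 matched doses with its standard error (horizontal axes) for the 44 genes in rows, for T4 minus CPT, T5 minus CPT and T5 minus T4, with filled points for an adjusted p under 0.05. NUP35 is at the top at 2.43 and 2.16, NUP62 at the bottom at -2.06 and -2.24, and the T5 minus T4 values lie within -0.38 and 0.13; centring libraries on their medians leaves 6 genes above 0 in that panel called.

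NUP50-AS1 is the member that is no pore gene, and its FPKM was higher in the CPT libraries than in any other. It stood at 0.498 FPKM in DMSO and at 0.0851, 0.0924, 0.217, 0.271 and 0.303 FPKM with rising T4, at 0.0809, 0.0585, 0.148, 0.226 and 0.285 FPKM with rising T5, and at 0.672, 3.44, 3.76, 3.27 and 3.11 FPKM with rising CPT. All T4 and T5 libraries were below DMSO and all CPT libraries above it. Its mean FPKM of 1.03 passed the limit through the CPT libraries, so its rise with CPT and its differences between compounds are tied to its selection and are given as values only. It is 1 of the 4 genes counted as rising with CPT and 1 of the 6 counted as lower with T4 or T5 than with CPT. Its neighbour NUP50 stood at 35.2, 33.0, 22.8, 20.7 and 20.4 FPKM with rising CPT.

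Pore genes that carry other symbols, from a list of 14, also fell more often than they rose. Of 13 measured, 9 fell and none rose with T4, 11 fell and 1 rose with T5, and 8 fell and 2 rose with CPT, beside 32.4%, 34.5% and 25.8% of all genes falling. Without the 0.5 µM T4 library 5 fell with T4, and without the 10 µM T4 library 6 did. With CPT 5 fell and none rose without the 0.5 µM library, none was called without 10 µM, 6 fell and none rose without 5 µM, and 1 rose without 20 µM. With T4, 1 rose at an unadjusted p under 0.05 in the limma fit. The risers were AAAS with T5, and AAAS and SEC13 with CPT. RAE1, an mRNA export factor that binds NUP98, stood at 10.9 FPKM with 20 µM T4, 8.79 with 20 µM T5 and 23.8 with 20 µM CPT, against 46.7 in DMSO. RANBP2, the nucleoporin of the cytoplasmic filaments, stood at 5.56 FPKM with 20 µM T4, 4.07 with 20 µM T5 and 3.01 with 20 µM CPT, against 16.6 in DMSO. AHCTF1, which recruits the outer ring to chromatin, had trends of -1.82 ± 0.30 with T4, -1.99 ± 0.27 with T5 and -2.38 ± 0.50 with CPT. NUPL2, on the cytoplasmic face, had trends of -1.88 ± 0.20 with T4 and -2.19 ± 0.21 with T5. Without the 10 or 20 µM T5 library AAAS was not called with T5 (adjusted p between 0.0504 and 0.0545). When libraries were centred on their medians, 5 of the 13 fell and 2 rose with T4, 7 fell and 2 rose with T5, and 6 fell and 2 rose with CPT.

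Of 12 measured genes of the Ran cycle and its adaptors, 3 fell and 2 rose with T4, 6 fell and 2 rose with T5, and 4 fell and 2 rose with CPT. Among all genes 32.4% fell and 14.5% rose with T4, 34.5% and 18.2% with T5, and 25.8% and 17.9% with CPT, and the T4 count lies near its shares. With T4, 2 fell and 1 rose without the 0.5 or 10 µM library, 6 fell without 2 µM and 5 without 20 µM. With CPT none rose without the 0.5 µM library, 1 rose without 5 µM, and none was called without 10 µM. RAN itself had no called trend, at 355.4 FPKM with 20 µM T4, 365.7 with 20 µM T5 and 412.8 with 20 µM CPT, against 324.7 in DMSO. RANBP1, which helps Ran release export cargo, and NUTF2, which brings Ran back into the nucleus, rose with all 3 compounds, NUTF2 by 0.56 ± 0.10 with T4, 0.65 ± 0.11 with T5 and 0.62 ± 0.15 with CPT. RANBP3, a cofactor of XPO1, fell by -1.50 ± 0.21 with T4, -1.67 ± 0.23 with T5 and -1.48 ± 0.26 with CPT. SNUPN, the adaptor that imports spliceosomal small RNA particles, fell by -1.33 ± 0.22, -1.32 ± 0.29 and -1.58 ± 0.33 with T4, T5 and CPT. PHAX, which exports the precursors of these RNAs, fell with T5 (-1.79 ± 0.48, adjusted p between 0.0568 and 0.0988 without the 0.5, 10 or 20 µM T5 library). Without the 0.5 or 10 µM T4 library RANBP1 was not called with T4 (adjusted p between 0.0589 and 0.0598). When libraries were centred on their medians, 2 of the 12 fell and 4 rose with T4, 2 fell and 5 rose with T5, and 4 fell and 3 rose with CPT.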

How the data were processed

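The submitted matrix, deposited by the authors, holds FPKM values, 1 column for every library. The submitters' processing notes name GSNAP, Cufflinks, hg19 and GRCh37 and give no role to any of them. Annotation, filters and strand handling were not given in the sources used here. Leaving out 2 inner header lines, 1 incomplete line and 220 identical repeats gave 25270 genes in 16 libraries.

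Genes averaging at least 1 FPKM (10600) were tested on log2(FPKM + 1), a log2 scale computed from the deposited values. Models were fitted in limma (version 3.58.1, under R 4.3.3; tables were read by data.table, version 1.17.8) with a variance trend, 2-sided tests and Benjamini-Hochberg adjustment over all genes at 0.05. Every adjusted p in the text comes from this fit across all genes. Dose trends used log2(1 + dose / 0.5 µM) over DMSO and 5 libraries. Differences at matched doses used dose as a block over 10 libraries, without DMSO. The labels do not say whether the single libraries per dose are separate cultures, and p-values reflect only their scatter about a line or a mean difference, technical scatter and curvature included. Relative depth came from the spacing of values below an FPKM of 0.2, with a width of 0.02 log2 units. The matrix holds no counts, so count tests and counting intervals were not possible.

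Members, roles and lists were chosen with earlier results of these data known. Genes given in every library were, per compound, up to 3 rising and 3 falling members with the largest called change and the same sign at all 5 doses, per comparison of T4 or T5 with CPT the 2 higher and 2 lower on the same terms, and KPNB1, XPO1, KPNA2 and NUP98. Up to 4 genes of each list were named by size of change, though not every gene of that size was named. RAN, RANBP1, NUTF2, AAAS and SEC13 were named outside that rule. Alternatives were a pseudocount of 0.1, no filter, median centring, quantile normalization, linear dose, treated libraries alone and leaving out each dose. The fits were tested on simulated data. Gene spans and overlaps came from GENCODE 29 (GRCh38) by symbol, with 43 of 44 members and 94.7% of tested genes matched. Promoters came from RefSeq (GRCh38.p14) by symbol. No coordinates of the authors' build were used. Tabulation and plotting used Python 3.11.15, pandas 2.3.3, numpy 2.4.6, scipy 1.17.1 and matplotlib 3.10.9.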

Additional observations from a re-analysis of the deposited data

Results flagged for a closer look

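For 2 members, all 5 libraries of T4 or T5 lay on one side of DMSO and all 5 of CPT on the other. NUP62 was below DMSO with T4 and T5 and above it with CPT, with differences of -2.06 ± 0.30 for T4 over CPT (adjusted p = 0.00148) and -2.24 ± 0.25 for T5 over CPT (adjusted p = 0.000545). The opposite-strand gene ATF5 lay between 8.11 and 35.0 FPKM in the 16 libraries, and its part in these values was not tested. NUP50-AS1 was likewise below DMSO with T4 and T5 and above it with CPT, with differences of -1.60 ± 0.20 for T4 over CPT and -1.64 ± 0.21 for T5 over CPT, at levels of at most 0.303 FPKM with T4, at most 0.285 with T5 and up to 3.76 with CPT. It passed the limit on mean FPKM through the CPT libraries alone, so these differences are tied to its selection and stand as a description with no test.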

How the results depend on the processing

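Member counts for T4 or T5 against CPT kept their counts within 1.5 times under every alternative, with 31 to 32 members higher and 4 to 6 lower with T4 than with CPT, and 27 higher and 4 to 7 lower with T5 than with CPT, when single doses were left out. Counts of dose trends did not. Members falling numbered 6 with T4, 10 with T5 and 10 with CPT under median centring, and members rising 13, 13 and 7. On a linear dose scale 5 fell with T4, 2 with T5 and 0 with CPT, and 0 rose with any compound. Without the expression filter 10 fell and 2 rose with CPT, quantile normalization left 11 falling with CPT, and with treated libraries alone 8 fell with CPT and 5 rose with T5. Leaving out 1 dose gave 10 to 18 falling and 0 to 2 rising with T4, 14 to 24 falling and 1 to 3 rising with T5, and 0 to 23 falling and 0 to 4 rising with CPT. Without the 10 µM CPT library none of the 44 was called, without the 0.5 µM CPT library 5 fell and 1 rose, and without the 5 µM CPT library 12 fell and none rose. Without the 20 µM CPT library 2 rose. The T4 risers fell to 0 without the 0.5, 5, 10 or 20 µM T4 library and the T5 risers to 1 without the 10 or 20 µM T5 library. T5 against T4 gave 12 lower and 6 higher under median centring and 1 higher under quantile normalization. The cause was not tested.

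Signs turned for small values. Under median centring the T4 trend became 0.40 for KPNB1, 0.12 for IPO7, 0.19 for NUP88, 0.21 for NUP43, 0.0060 for NUP35, 0.0056 for KPNA1 and 0.62 for NUP50-AS1, the T5 trend 0.32 for KPNB1 and 0.60 for NUP50-AS1, and the CPT trend 0.018 for KPNA2. It also gave 0.0035 for KPNA2 with T4 over CPT, 0.0080 for KPNA2 and 0.096 for NUP210 with T5 over CPT, and 0.0045 for KPNA2, 0.026 for KPNB1, 0.023 for IPO7 and 0.060 for NUP50-AS1 with T5 over T4. Under quantile normalization NUP50-AS1 turned to 0.23 with T4 and 0.29 with T5, KPNA2 to 0.040 with T4 over CPT, NUP210 to 0.088 with T5 over CPT and IPO5 to -0.0074 with T5 over T4. The NUP50-AS1 trends also turned on a linear scale (0.091 with T4, 0.080 with T5), with treated libraries alone (0.37 with T4, 0.34 with T5) and with a pseudocount of 0.1 (0.11 with T4). The NUP62 trend with CPT turned to -0.10 on a linear scale and -0.25 with treated libraries alone. Leaving out 1 dose gave -0.17 to 0.30 for the TNPO2 trend with T4, -0.33 to 0.31 with T5, and -0.17 to 0.11 for KPNA2 with T4 over CPT and -0.29 to 0.0076 with T5 over CPT. Comparisons at matched doses pair libraries by dose. Beyond this pairing by dose, no pairing by replicate was possible, because every group has 1 library.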

Other observations

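Genes of mRNA export and of the nuclear lamina work beside the pore. Among all genes tested, 32.4% fell and 14.5% rose with T4, 34.5% and 18.2% with T5, and 25.8% and 17.9% with CPT. Of 20 mRNA export genes tested, 5 fell and 3 rose with T4, 6 fell and 4 rose with T5, and 4 fell and 3 rose with CPT. These counts lie near the shares of all genes, and their difference from those shares was not tested. Without the 0.5 or 10 µM T4 library 3 fell and 1 rose with T4, without 5 µM T4 3 fell and 2 rose, without 0.5 or 10 µM T5 2 rose with T5, and without 10 µM CPT none was called with CPT. CHTOP, a partner of the export complex, stood at 4.41 FPKM with 20 µM T4, 3.50 with 20 µM T5 and 20.5 with 20 µM CPT, against 21.8 in DMSO, with a difference of -1.18 ± 0.23 for T4 over CPT (adjusted p = 0.00439). POLDIP3, another adaptor of this complex, was above DMSO at 0.5 and 2 µM T4, at 35.1 and 37.0 FPKM against 24.8, and stood at 10.8 FPKM with 20 µM T4. THOC6, a subunit of the THO complex, rose by 1.04 ± 0.26 with T4, 1.39 ± 0.26 with T5 and 2.03 ± 0.44 with CPT, and NXT1, the cofactor of the export receptor NXF1, rose with CPT by 1.74 ± 0.25. Without the 0.5 or 10 µM library of the same compound THOC6 was not called with T4 (adjusted p between 0.0511 and 0.0624) or CPT (adjusted p between 0.0501 and 0.0593), and NXT1 was not called without 10 µM CPT (adjusted p = 0.0537). When libraries were centred on their medians, 1 fell and 10 rose with T4, 2 fell and 10 rose with T5, and 2 fell and 8 rose with CPT.

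Of 14 lamina and envelope genes tested, 2 fell and 2 rose with T4, 4 fell and 2 rose with T5, and 4 fell and 3 rose with CPT, and centring gave 1 falling and 7 rising with T4, 1 and 7 with T5, and 2 and 6 with CPT. Without the 10 or 5 µM T4 library 1 fell and none rose with T4, without 0.5 µM T4 1 fell and 1 rose, and without 2 or 20 µM T4 none rose. Without 10 µM T5 2 fell and none rose with T5, without 0.5 µM CPT 2 fell and 1 rose with CPT, without 5 µM CPT 1 rose, and without 10 µM CPT none was called. LEMD3, an inner membrane protein that binds SMAD proteins, stood at 0.980 FPKM with 20 µM T4, 0.628 with 20 µM T5 and 1.62 with 20 µM CPT, against 7.07 in DMSO. LMNB1, a B-type lamin, was higher with T4 than with CPT by 1.20 ± 0.13 (adjusted p = 0.000585) and with T5 than with CPT by 0.95 ± 0.14 (adjusted p = 0.00167). LEMD2 went the other way, by -0.88 ± 0.11 with T4 (adjusted p = 0.000827) and -1.11 ± 0.10 with T5 (adjusted p = 0.000281). Of the 14, 6 were higher and 5 lower with T4 than with CPT, and 6 higher and 6 lower with T5. Among all genes tested, 28.3% were higher and 36.9% lower with T4, and 25.0% and 37.6% with T5.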
